A study of Mus musculus with 6 samples.

Results

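The genes described here carry the signal of Toll-like receptors to the transcription factor NF-kB and then switch it off: receptor partners, adaptors, kinases, NF-kB subunits and feedback inhibitors. They are 41 genes listed by name for their known roles. The list was made with earlier results of these data known, so its shares beside those of all genes only describe it. Of these, 34 had a probe set (a group of short DNA probes for a transcript) that maps to 1 gene, with 75 such probe sets together, among 18193 genes with one on the arrays. Where a gene had several, the brightest on average across all 6 arrays stands for it. All 34 lay above background on every array. Levels of Ticam2, Irak4, Traf3, Chuk, Nfkb1, Ripk1 and Ripk2 were not analysed here.

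Total RNA of mouse macrophages was hybridised to 6 Affymetrix arrays, 1 per sample. Wild-type cells were given medium (n = 1) or lipopolysaccharide (LPS, a component of the bacterial cell wall; n = 1), and these arrays are called the LPS pair. A second set, called the Trib1 line, holds LPS-treated cells labelled wild-type (n = 2) or KO for Trib1 (n = 2), each numbered 1 and 2, so both genotypes of that set had LPS and none of it is untreated. The Trib1 protein, a kinase relative without strong catalytic activity, is an adaptor for ubiquitin-driven breakdown of C/EBP factors. The labels name no strain, age, sex, cell source, dose, time, allele or promoter, and give no sign of whether arrays sharing a genotype are separate animals, so p-values measure the spread between these arrays, which may be technical.

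LPS is handed by CD14 to TLR4 and its partner MD-2 (Ly96). The receptor then recruits the adaptors MyD88, with TIRAP, and TRIF (Ticam1). IRAK kinases, TRAF6 and the TAK1 kinase complex activate the IKK complex, which marks IkB proteins for destruction and frees NF-kB dimers to enter the nucleus. Several inhibitors, among them IkB-alpha (Nfkbia) and A20 (Tnfaip3), are themselves NF-kB targets in macrophages, which makes the response transient. In the counts below 19 members with a probe set are activators, 9 are inhibitors and 6 have mixed roles (Traf1, Birc2, Birc3, Nfkbiz, Bcl3 and Ier3).

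The deposited values had been scaled to different levels, with a trimmed mean of 500.0 for each array of the LPS pair but between 95.5 and 106.6 on the Trib1 line, so all values below are rescaled intensities with a common trimmed mean. The 2 sets also differed in sex-linked transcripts. Xist measured 1616 and 980.5 on the LPS pair and at most 5.56 on the Trib1 line, whereas Eif2s3y, from the Y chromosome, measured at most 4.74 on the LPS pair and at least 218.8 on the Trib1 line. A level under 29.9, the 40th percentile of all arrays, was taken as background and set to that floor, and 57.9% to 63.0% of probe sets lay above it on each array. All 10 macrophage markers looked at, Adgre1, Cd68, Csf1r and Lyz2 among them, were above the floor in the LPS pair and 9 on every Trib1-line array, where Cd163 was under it. The main Trib1 probe set measured 383.5 (medium) and 189.3 (LPS) in the LPS pair. On the Trib1 line it measured 17.9 and 17.5 for wild type against 88.1 and 20.9 for KO. Whether this probe set lies in the deleted stretch is not stated in the sources used here, so it does not check the labels, and those arrays are called knockout-labelled.

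The sequences just before the annotated starts of 6 members are printed here because they show 2 patterns described below. Tnip1, Nfkb2, Traf1 and Irak3 lay at least 2-fold above medium on every wild-type LPS array, whereas the classical feedback inhibitors Nfkbia and Tnfaip3 did not. Each is the 250 bases before the first start that RefSeq lists (build GRCm38.p6), read 5′ to 3′ on the gene's strand. Capitals mark every match, on either strand, to the kappaB decamer consensus, the sequence that NF-kB dimers recognise, and overlapping matches run together.
Tnip1, chr11:54962941-54963190, minus strand: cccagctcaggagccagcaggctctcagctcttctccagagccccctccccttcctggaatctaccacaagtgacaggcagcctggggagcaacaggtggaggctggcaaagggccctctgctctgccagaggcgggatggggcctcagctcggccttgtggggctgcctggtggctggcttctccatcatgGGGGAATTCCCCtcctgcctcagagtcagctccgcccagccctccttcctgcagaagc
Nfkb2, chr19:46304487-46304736, plus strand: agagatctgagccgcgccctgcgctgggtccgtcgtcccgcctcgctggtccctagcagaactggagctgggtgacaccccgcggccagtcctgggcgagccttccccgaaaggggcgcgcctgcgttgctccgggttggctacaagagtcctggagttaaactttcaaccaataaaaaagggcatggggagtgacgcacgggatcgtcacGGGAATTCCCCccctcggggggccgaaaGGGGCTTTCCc
Nfkbia, chr12:55492648-55492897, minus strand: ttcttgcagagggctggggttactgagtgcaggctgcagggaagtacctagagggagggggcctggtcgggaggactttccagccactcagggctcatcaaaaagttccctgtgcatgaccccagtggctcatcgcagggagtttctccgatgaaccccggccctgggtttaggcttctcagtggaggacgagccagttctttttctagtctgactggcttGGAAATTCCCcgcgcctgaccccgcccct
Tnfaip3, chr10:19015411-19015660, minus strand: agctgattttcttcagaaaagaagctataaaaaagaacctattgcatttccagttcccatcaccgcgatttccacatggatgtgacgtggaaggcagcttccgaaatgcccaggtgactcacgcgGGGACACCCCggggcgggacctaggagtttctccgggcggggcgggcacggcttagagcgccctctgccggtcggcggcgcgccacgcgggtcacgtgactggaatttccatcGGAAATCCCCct
Traf1, chr2:34961773-34962022, minus strand: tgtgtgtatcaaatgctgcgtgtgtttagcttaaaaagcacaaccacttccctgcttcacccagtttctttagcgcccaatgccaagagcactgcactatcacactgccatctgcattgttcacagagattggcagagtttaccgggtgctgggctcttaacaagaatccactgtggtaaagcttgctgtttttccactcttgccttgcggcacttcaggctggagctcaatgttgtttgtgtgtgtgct
Irak3, chr10:120201598-120201847, minus strand: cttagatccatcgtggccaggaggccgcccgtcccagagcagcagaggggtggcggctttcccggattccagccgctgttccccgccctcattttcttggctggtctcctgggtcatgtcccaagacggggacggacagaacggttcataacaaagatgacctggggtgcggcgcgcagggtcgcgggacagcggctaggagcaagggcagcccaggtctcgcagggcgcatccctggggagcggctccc

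The Tnip1 window holds 3 overlapping matches, the first beginning at position -58 from the start. The Nfkb2 window holds 3, the first at -39 and the last at -11. The Nfkbia window holds 1, at -29, and the Tnfaip3 window 2, at -125 and -12. The windows printed for Traf1 and Irak3 hold none, which says only that these letters are not in these 250 bases. RefSeq windows were held for 33 members, some without a probe set, and 11 of them (33.3%) have a match in at least 1 window: Irak1, Map3k7, Nfkb2 and Rel among 18 activators, Nfkbia, Nfkbie, Tnfaip3, Tnip1 and Cyld among 9 inhibitors, and Traf3 and Ier3 among 6 of mixed role. Over all 27025 genes with windows the share was 8.23%, over the 14452 of them with a probe set 10.1%, and over all 32851 single windows 7.25%. Of the 6 members at least 2-fold above medium on all 3 wild-type LPS arrays that have a window, 3 (50.0%) hold a match, beside 7 of 23 other members with a probe set (30.4%), 18.3% of 229 other genes with that pattern and 10.3% of 11855 genes without it. A match describes the letters and was not tested for binding.

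Transcripts of this machinery were mostly higher with LPS than with medium in the LPS pair. Median ratios there were higher for inhibitors and NF-kB subunits than for adaptors, although single genes overlapped. Some members above medium in this pair lay under it on both wild-type arrays of the Trib1 line. In the LPS pair 11 of 34 members were at least 2-fold higher with LPS than with medium, where 5.44% of 13700 genes above the floor were, and 4 (Nfkbiz, Traf1, Nfkb2 and Tnip1) were at least 4-fold higher, where 1.21% were. The 11 were 4 of 19 activators (Cd14, Tab2, Nfkb2 and Rel), 4 of 9 inhibitors (Irak3, Nfkbib, Tnfaip3 and Tnip1) and 3 of 6 of mixed role (Traf1, Nfkbiz and Ier3). No member was 2-fold lower, where 6.72% of genes were. With a single array for each condition, these ratios have no replicate check.

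Medians of the log2 ratio, LPS over medium, were 0.51 for activators, 0.81 for inhibitors and 1.05 for mixed-role members, beside -0.11 over all genes above the floor. The classes overlapped widely, with activators running from -0.97 to 2.39 and inhibitors from -0.76 to 2.74. In all, 31 of 34 members had a ratio above 0, where 5755 of 13700 genes did. The median was 0.31 for the 3 adaptors and 1.16 for the 4 NF-kB subunits, and 0.40 for activators without those subunits. Among the markers of other cells, the summed level of 5 B cell markers went from 2029 to 2995 in this pair, although Cd22 went from 760.5 to 675.8. The dendritic cell sum went from 234.2 to 542.6 (Ccr7 from 69.7 to 381.4) and the T and NK cell sum from 122.7 to 225.3. Mast cell markers went from 1160 to 1404 and neutrophil markers from 249.9 to 331.3. The sum of 6 stromal markers went from 2148 to 4497. The stromal sum was set by Pdpn (1790 and 4290), and the median log2 ratio of the 4 stromal markers above the floor was -0.23. The part of these cells in the ratios was not tested, and in bulk RNA more cells of a type and more RNA per cell cannot be told apart.

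**Figure D1:**
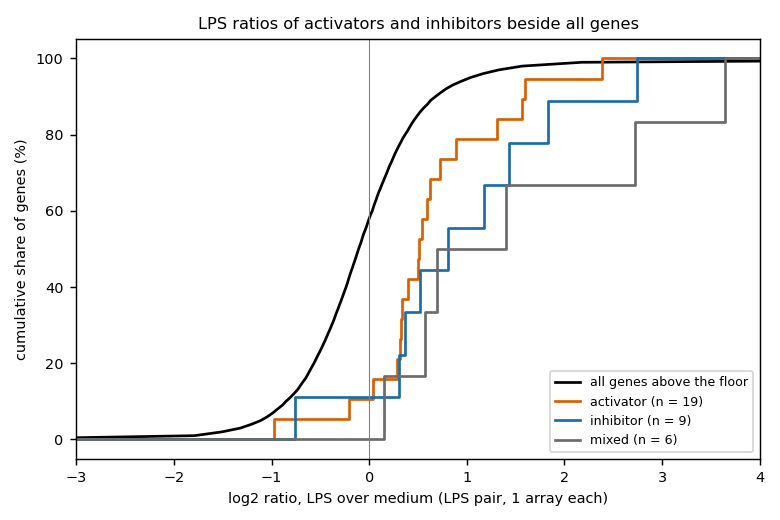
Cumulative share of genes (vertical axis, percent) against the log2 ratio of LPS over medium in the LPS pair (horizontal axis, 1 array each), for 19 activators, 9 inhibitors, 6 mixed-role members and all 13700 genes above the floor. The 3 member curves lie to the right of the curve of all genes over most of the range, with medians of 0.51, 0.81 and 1.05 beside -0.11.

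The wild-type arrays of the Trib1 line offer LPS-treated cells of the other set. Each ratio uses the same medium array, which differs from them in scale, in sex-linked transcripts and in some cell markers. Mrc1 measured 5430 in medium and 3503 with LPS in the LPS pair, but 667.3 and 285.5 on wild type 1 and 2. Cd79b measured 425.3 and 550.5 against 87.0 and 121.8, whereas Cd68 and Cd22 differed by less. Differences between the sets and effects of LPS cannot be told apart in these ratios. On all 3 wild-type LPS arrays together, 8 of 34 members lay at least 2-fold above medium, where 1.97% of 15098 genes did: Cd14, Irak3, Traf1, Nfkb2, Nfkbib, Nfkbiz, Tnip1 and Ier3. Of these, 2 are activators, 3 inhibitors and 3 of mixed role. No member lay 2-fold below medium on all 3, where 2.19% of genes did. Over medium, the activator median was 0.11 on wild type 1 and 0.32 on wild type 2, and the inhibitor median 0.24 and 0.64.

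**Figure D2:**
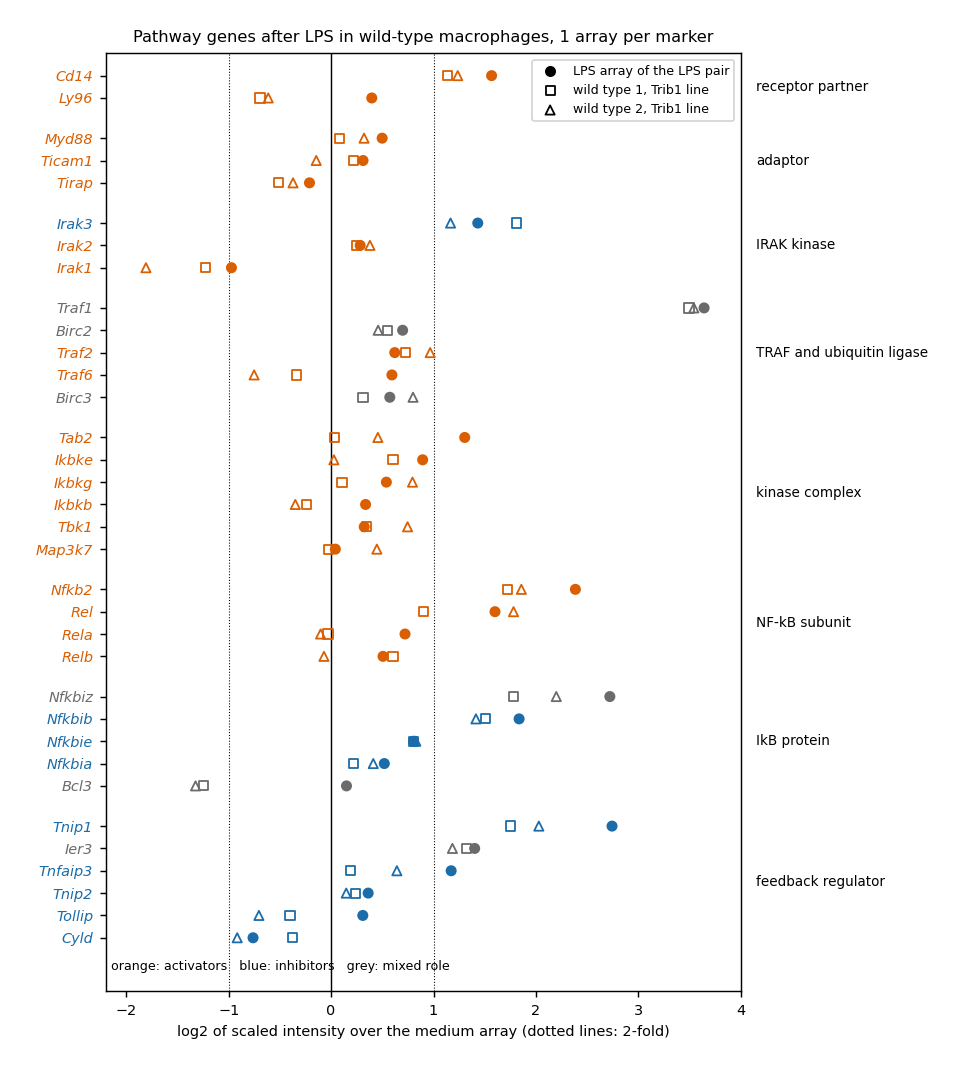
Log2 of scaled intensity over the medium array (horizontal axis; dotted lines mark 2-fold) for 34 members grouped by role, with a filled circle for the LPS array of the LPS pair and open symbols for wild type 1 and 2 of the Trib1 line, 1 array per symbol. Traf1 lies above 3 on all 3 arrays, and Ly96, Traf6, Ikbkb, Rela, Bcl3 and Tollip lie above 0 in the LPS pair and under 0 on both Trib1-line arrays.

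At the receptor, Cd14, which binds LPS and passes it on, measured 6314 in medium and 18708 with LPS in the LPS pair (2.96-fold). Wild type 1 and 2 measured 13871 and 14874. All LPS arrays were therefore at least 2-fold above medium. Ly96, the TLR4 partner that holds LPS directly, measured 826.0 in medium, 1088 with LPS, and only 510.2 and 539.7 for wild type on the Trib1 line, so it lay on either side of medium.

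The adaptors differed little from medium. Myd88, shared by most Toll-like receptors, measured 4799 in medium, 6779 with LPS, and 5090 and 5997 on wild type 1 and 2. Ticam1, the adaptor of the interferon branch, measured 301.4, 374.1, 350.2 and 272.5 in the same order. Tirap, which brings MyD88 to the membrane, measured 318.7 in medium and less on each LPS array (275.3, 223.7 and 246.2). By these probe sets no adaptor reached a 2-fold difference on any of these arrays. The other Tirap probe set measured 65.8 in medium and was under the floor with LPS in the LPS pair, at least 2.20-fold lower, and measured 39.0 and 36.5 on wild type 1 and 2.

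Among the IRAK proteins Irak1 and Irak3 lay on opposite sides of medium. Irak1, a kinase used up in signalling, measured 861.1 in medium and 438.6, 367.1 and 245.9 on the LPS arrays, a ratio of 0.509 in the LPS pair and at most 0.426 on the Trib1 line. Its other 3 probe sets were lower with LPS too. Irak3, also called IRAK-M, which blocks release of the active IRAKs from the receptor, measured 396.8 in medium and 1071, 1394 and 890.5 on the LPS arrays (2.70-fold, 3.51-fold and 2.24-fold). Irak2, the kinase that sustains the signal, stayed between 1435 in medium and 1866 on wild type 2.

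Traf1, a signalling scaffold that can either extend or limit NF-kB activity, had the highest ratio of any member in the LPS pair. It measured 151.2 in medium and 1888, 1705 and 1762 on the LPS arrays, which is 12.5-fold, 11.3-fold and 11.6-fold, with little difference among the 3. The other Traf1 probe set gave log2 ratios of 1.99, 1.45 and 1.63. Traf2, a ubiquitin ligase partner in TNF receptor signalling, measured 360.1 in medium and 554.0, 594.5 and 704.0 with LPS. Traf6, the ligase downstream of the IRAKs, measured 238.4 in medium, 359.8 with LPS, but 189.0 and 141.6 for wild type 1 and 2, on either side of medium.

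The ubiquitin ligases Birc2 and Birc3, known as cIAP1 and cIAP2, promote canonical signalling and restrain the non-canonical route. Birc2 measured 508.3 in medium and 824.7, 746.0 and 698.8 on the LPS arrays, and Birc3 2093, then 3113, 2598 and 3644. Both lay above medium on all 3 LPS arrays without reaching 2-fold on any, although another Birc3 probe set gave a log2 ratio of -0.33 in the LPS pair.

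Of the kinase complexes, by the probe sets used, only Tab2, the TAK1 partner that binds ubiquitin chains, reached 2-fold, and only in the LPS pair. It measured 1828 in medium and 4516 with LPS (2.47-fold), but 1868 and 2508 on wild type 1 and 2. Map3k7 (TAK1 itself), Ikbkb and Ikbkg (IKK-beta and the IKK scaffold NEMO) and Tbk1, the kinase of the interferon branch, had ratios between 0.785 and 1.73 on the 3 arrays. Ikbke, the inducible relative of Tbk1, measured 2275 in medium and 4227, 3459 and 2318 with LPS, so wild type 2 lay near medium. For Map3k7, Ikbkb and Ikbkg other probe sets above the floor had ratios of the opposite sign in the LPS pair, and so did 2 of Traf6. A dimmer Map3k7 probe set measured 32.0 in medium, near the floor, and 83.1, 107.2 and 102.1 with LPS (2.60-fold, 3.35-fold and 3.20-fold).

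The NF-kB subunits differed from one another. Nfkb2, which encodes p100, an inhibitor until it is cut to the DNA-binding p52, measured 1064 in medium and 5557, 3508 and 3854 with LPS (5.22-fold, 3.30-fold and 3.62-fold). Nfkb2 is counted as an activator here, although p100 inhibits, and has the highest LPS-pair ratio of that class (log2 2.39). Rel, the c-Rel subunit, measured 213.9 in medium and 648.6, 398.9 and 735.3 with LPS, at least 2-fold above on all but wild type 1. Rela, the p65 subunit, measured 3605 in medium, 5945 with LPS, and 3528 and 3357 on the Trib1 line, so the higher value of the LPS pair was not seen there. Relb, the partner of p52, measured 990.0 in medium and 1407, 1504 and 943.2 with LPS.

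The IkB proteins also differed from one another. Nfkbib (IkB-beta) measured 1286 in medium and 4592, 3652 and 3428 with LPS (3.57-fold, 2.84-fold and 2.67-fold). Nfkbie (IkB-epsilon) measured 2411, then 4213, 4202 and 4278, between 1.74-fold and 1.77-fold, while another probe set gave 2.12-fold in the LPS pair and less than 2-fold on the Trib1 line. Nfkbia (IkB-alpha) measured 16483 in medium and 23625, 19216 and 21926 with LPS, at most 1.43-fold. The ratio depended on the probe set: in the LPS pair the other 4 of Nfkbia gave from 1.36-fold to 1.96-fold, but no more than 1.52-fold for wild type 1 or 2.

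The nuclear IkB proteins Nfkbiz (IkB-zeta, needed for a set of secondary response genes) and Bcl3 gave a contrast. Nfkbiz measured 990.2 in medium and 6533, 3395 and 4546 with LPS, at least 3.43-fold on each array. Another Nfkbiz probe set gave a log2 ratio of 3.18 in the LPS pair, and the remaining one gave -0.05 (268.4 in medium and 259.2 with LPS). Bcl3 measured 1420 in medium and 1576 with LPS, but 598.3 and 567.3 on wild type 1 and 2, more than 2-fold under medium.

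Of the feedback regulators, Tnip1, an A20 partner that binds ubiquitin, measured 1662 in medium and 11131, 5591 and 6781 with LPS (6.70-fold, 3.36-fold and 4.08-fold). Tnfaip3 itself, the ubiquitin-editing enzyme A20, measured 5341 in medium, 12036 with LPS (2.25-fold), and 6076 and 8336 on wild type 1 and 2. Ier3, an early response gene that modulates NF-kB and cell survival, measured 1404 in medium and 3710, 3516 and 3192 with LPS. Thus Tnip1 and Ier3 were at least 2-fold above medium on each LPS array and Tnfaip3 on 1 of 3. Tnip2 stayed near medium (225.6, then 289.9, 265.8 and 249.9). Cyld, a deubiquitinase, lay under medium on each LPS array (813.2, then 479.4, 624.6 and 430.7). Tollip, an adaptor that restrains IRAK1, measured 1438 in medium, 1782 with LPS, and 1089 and 882.1 on the Trib1 line. The other Tollip probe set was above medium on all 3 LPS arrays (log2 0.18, 0.36 and 0.39), so the lower values rest on 1 probe set.

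Other genes of the same pathway, 40 on a separate list of which 36 had a probe set, were less uniform. Of 35 above the floor in the LPS pair, 5 were at least 2-fold higher with LPS: Zc3h12a (the RNase Regnase-1, from 276.3 to 1972, 7.14-fold), Usp18 (6.01-fold), Socs3, Tank and Traf5. The LPS receptor Tlr4 itself was lower, from 693.5 in medium to 279.2 with LPS (2.48-fold lower), as did the TLR4 relative Cd180 (2.43-fold lower), Tab1 and Rbck1. The median log2 ratio of this list was 0.24. Among genes that NF-kB switches on, 20 of 27 were at least 2-fold higher and Bcl2l1 was lower, with a median of 2.22.

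The genotype comparison asks whether LPS-treated cells labelled as lacking Trib1 differ from wild type. No member passed the test: limma called 0 of 34, and 0% of 29078 probe sets, at a Benjamini-Hochberg adjusted p under 0.05. At an unadjusted p under 0.05, 4 members were higher and 1 was lower with the knockout label, where 5.53% of 13897 genes had such a p in either direction. These were Ier3, Irak3, Cd14 and Tnip1, all higher, and Birc2, lower. The median log2 difference was 0.01 over 19 activators, 0.07 over 9 inhibitors and 0.18 over 6 mixed-role members, beside 0.01 over all genes tested.

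Both knockout-labelled arrays lay above both wild-type arrays for 10 members, where 16.9% of genes did, and below them for 3, where 15.7% did. The 10 were 4 activators, 3 inhibitors and 3 of mixed role, and the 3 were 1 of each class. Differences ran from -0.25 to 0.58 over the activators and from -0.12 to 1.23 over the inhibitors. With 2 arrays per genotype the smallest two-sided p of an exact permutation test is 0.333, so no such test could pass.

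Irak3 had the largest difference of any member. It measured 1394 and 890.5 for wild type 1 and 2 against 2698 and 2533 for knockout-labelled 1 and 2. The groups did not overlap, and the log2 difference was 1.23 (SE 0.25, n = 2 per genotype), which is 2.35-fold, with a limma adjusted p of 0.848. The pair's LPS array, at 1071, lay within the wild-type values. The other Irak3 probe set also separated the genotypes, at 679.7 and 490.3 against 1162 and 1212 (log2 1.04). The difference ran between 0.91 and 1.55 when 1 array was left out.

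Ier3 measured 3516 and 3192 for wild type against 6413 and 5665 for the knockout label, a log2 difference of 0.85 (SE 0.17; limma adjusted p = 0.818). Its value on the pair's LPS array, 3710, was also under both knockout-labelled values. Without any 1 of the 4 arrays the difference ran from 0.76 to 0.94.

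Cd14 measured 13871 and 14874 for wild type against 23075 and 19999, again without overlap (log2 0.58, SE 0.17; limma adjusted p = 0.950). The pair's LPS array, at 18708, came close to the lower knockout-labelled value. Tnip1 measured 5591 and 6781 for wild type against 8416 and 8644 (log2 0.47, SE 0.18; limma adjusted p = 0.967), yet 11131 on the pair's LPS array, above all 4. With that array added to the wild types the Tnip1 difference was 0.19.

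Birc2 was the member that was lower with the smallest p. It measured 746.0 and 698.8 for wild type against 437.9 and 438.0, without overlap (log2 -0.72, SE 0.19; limma adjusted p = 0.899), both under its level of 508.3 in medium. The pair's LPS array, at 824.7, lay with the wild types. Its relative Birc3 overlapped between genotypes, with 2598 and 3644 against 2487 and 3614.

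Bcl3 measured 598.3 and 567.3 on wild type, 1420 on knockout-labelled 1 and 609.1 on knockout-labelled 2 (log2 0.67, SE 0.40; limma adjusted p = 0.999), and without knockout-labelled 1 the difference was 0.06. Tnip2 measured 265.8 and 249.9 against 432.0 and 266.8, and its difference went from 0.40 to 0.05 without the same array. Tirap (223.7 and 246.2 against 297.8 and 307.6; log2 0.37) did not overlap, although its other probe set gave -0.24. Myd88 (5090 and 5997 against 3917 and 5517; log2 -0.25) and Nfkbiz (3395 and 4546 against 4301 and 4814; log2 0.21) overlapped. Without 1 array at a time the Myd88 difference ran from -0.50 (without knockout-labelled 2) to -0.0022 (without knockout-labelled 1), and that of Nfkbiz from 0.0014 (without wild type 1) to 0.42 (without wild type 2).

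**Figure D3:**
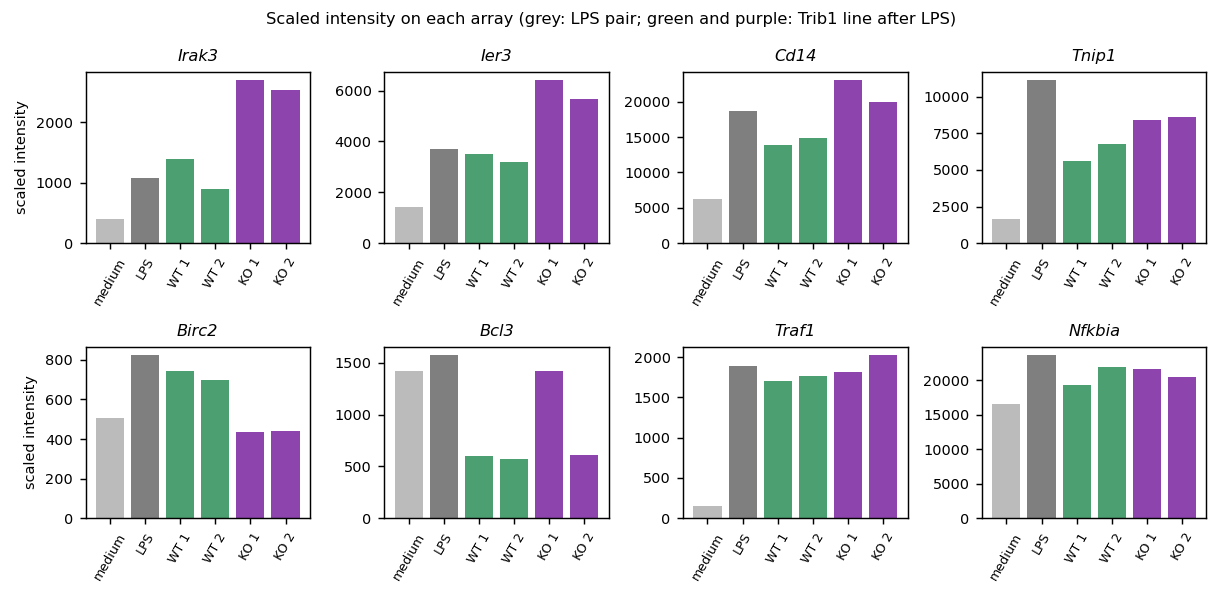
Scaled intensity (vertical axis, linear from 0) on each of the 6 arrays for 8 members, with bars for medium, LPS, wild type (WT) and knockout-labelled (KO) arrays. Irak3 and Ier3 stand higher on both KO arrays than on all other arrays, Birc2 stands lower there than on every other array, and the Bcl3 bar on KO 1 is as tall as that in medium, both at 1420.

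Most core members differed by less than their error. Traf1 measured 1705 and 1762 for wild type against 1817 and 2027, a difference of 0.15 with a 95% interval from -0.26 to 0.56 (limma, unadjusted). For Nfkbia the difference was 0.03 (-0.39 to 0.46), for Nfkbib 0.00 (-0.42 to 0.42), for Nfkbie -0.05 (-0.44 to 0.33) and for Tnfaip3 0.07 (-0.44 to 0.58). Intervals of this width do not show that the genotypes are alike. Other probe sets gave the opposite sign for 11 members besides Tirap. The largest of these were 0.77 for Irak1, where both knockout-labelled arrays lay above both wild types (beside -0.16 for the one used), and 0.58 for Ikbkb (beside -0.18). Those of Traf6, Tnfaip3, Map3k7, Ikbkg, Cyld, Nfkb2, Tab2, Nfkbib and Birc3 lay between -0.29 and 0.08. The widest intervals were those of Traf6 and Bcl3, the latter from -0.33 to 1.68.

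**Figure D4:**
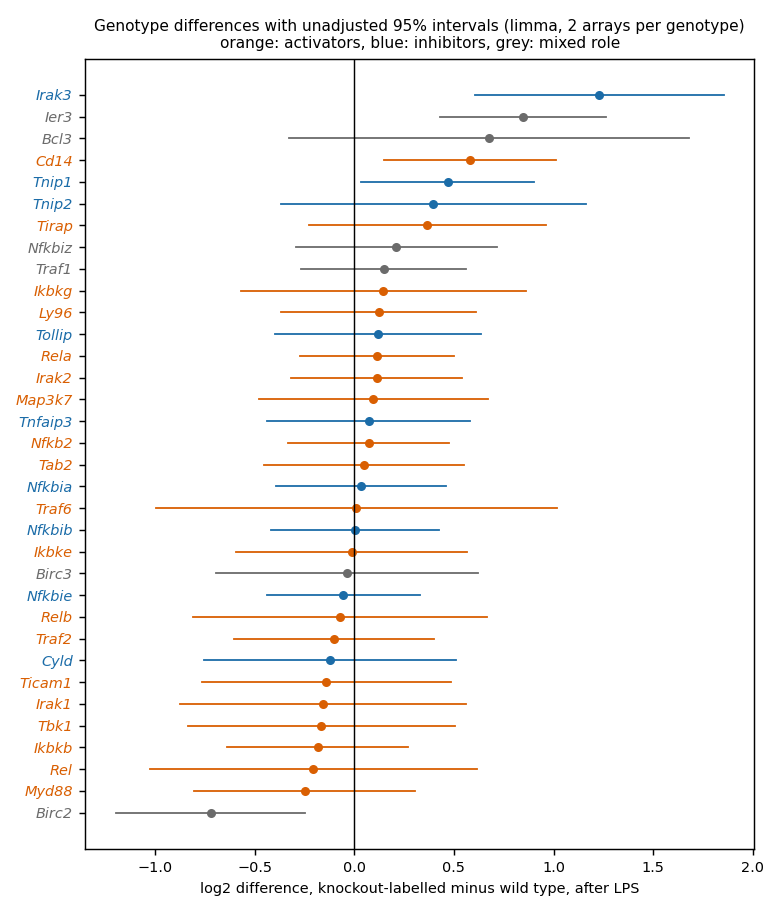
Log2 difference of knockout-labelled minus wild-type arrays after LPS (horizontal axis) for 34 members, with points for the estimate and lines for unadjusted 95% intervals from limma, n = 2 per genotype. The intervals of Irak3, Ier3, Cd14, Tnip1 and Birc2 exclude 0 before adjustment, and none of the 5 passes after it.

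Some markers of other cell types differed between the genotypes alongside these values, although limma called 0 of 29078 probe sets. Of 6 mast cell markers, 4 were lower with the knockout label without overlap, whereas Kit (log2 difference -0.02) and Mcpt4 overlapped. The summed level of 6 mast cell markers was 697.3 and 1023 for wild type against 204.6 and 267.8 for the knockout label, where 3 and 4 of the 6 were above the floor, and Cma1 was under it on knockout-labelled 1. The sum of 6 stromal markers was 6460 and 5394 against 13152 and 14198, mostly from Pdpn (6118 and 4849 against 12532 and 12270), which macrophages can also express, while Col1a1 measured 146.8 and 140.3 against 239.2 and 861.8. Of 5 B cell markers, 4 were lower on both knockout-labelled arrays without overlap (Cd79a, Cd79b, Ms4a1 and Pax5) and Cd22 overlapped, with a median log2 difference of -0.83. Their sum, largely Cd22, was 1483 and 1438 against 1064 and 1379. The sum of 6 neutrophil markers was 344.7 and 364.3 against 689.4 and 327.2, with Cxcr2 under the floor on all but 1 of these 4. Its markers went in different directions. Camp was under the floor on both wild types against 219.9 and 66.9, Ltf measured 87.0 and 87.2 against 40.2 and 12.7, and Elane, Mpo and Ngp overlapped. Sums of T and NK cell markers and of dendritic cell markers overlapped. The part of these cells in the differences of Irak3, Ier3, Cd14, Tnip1 and Birc2 was not tested.

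In the wider pathway list limma called 0 of 35 between genotypes. At an unadjusted p under 0.05, Tlr2 and Zc3h12a were higher with the knockout label, and Tlr1, Tlr6, Cd180, Ly86 and Tank lower. Tlr2, a receptor for bacterial lipoproteins, measured 843.8 and 1058 for wild type against 3169 and 3135 (log2 1.74, SE 0.19; limma adjusted p = 0.579), with 5282 on the pair's LPS array. Zc3h12a measured 965.7 and 1041 against 1791 and 1854 (log2 0.86, SE 0.17; limma adjusted p = 0.818), with 1972 on the pair's LPS array. Cd180, which restrains TLR4, measured 996.1 and 975.4 against 520.5 and 573.9 (log2 -0.85, SE 0.18; limma adjusted p = 0.873), with 469.4 on the pair's LPS array, under all 4. Among 26 NF-kB targets tested 0 passed, with Csf3 higher and Il12b and Cd80 lower at an unadjusted p under 0.05.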

How the data were processed

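Each sample gave 1 array. The deposited table holds a linear intensity for each probe set, which the authors made with MAS5, per the submitters' processing notes, whose version and scaling target are not given in the sources used here. Of 45101 probe sets, 64 controls were left out, and 34945 of the remaining 45037 list 1 gene. Arrays were rescaled to a common trimmed mean (without the lowest and highest 2%) of 233.9, values under the pooled 40th percentile (29.9) were set to it, and log2 was taken. LPS was compared with medium by ratios without a test. For the genotypes, limma 3.58.1 (R 4.3.3) was fitted with lmFit and a trended eBayes (2 residual and 3.68 prior degrees of freedom) to probe sets over the floor on 2 or more of the 4 arrays, two-sided, with Benjamini-Hochberg adjustment over all 29078. The fit was tested on simulated data with changes far larger than any member difference, so that check does not bear on differences of the size seen here. The number of arrays limits the precision.

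The members, classes and lists were chosen with earlier results of these data known. Members were named with values on each array if 2-fold different in the LPS pair, inhibitory or of mixed role, or among the 10 smallest genotype p, and others by range or level. Non-members were given with values for up to 4 genes of a list in each comparison, and others of short counts were named after their values were seen. Lists were described by counts and medians, without a test. Alternatives were the deposited values, quantile normalization, other floors (25th and 60th percentile), log2 of the value plus 16, all probe sets of a gene, no filter, the label number as a block, each array left out, the LPS pair's LPS array added to the wild types, no trend, 1 probe set per gene, other fold rules, each wild-type Trib1-line array in place of the LPS array, and other class assignments. Figures used Python 3.11.15 and matplotlib 3.10.9.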

Additional observations from a re-analysis of the deposited data

How the results depend on the processing

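Of the summaries over the members and the wider pathway list, 100 recomputed values moved by less than the spread between arrays or 1.5 times, and 12 by more. The 34 members gave 0 genotype calls in every alternative but one, those without each array included. With the label number as a replicate block there were 2, Ier3 (limma adjusted p = 0.0391) and Irak3 (0.0403), whose adjusted p reached 0.9999 in other alternatives, and 1 (Tlr2) in the pathway list. Over all probe sets limma called 0, against 85 higher and 31 lower with the block, and 36 higher and 32 lower without knockout-labelled 2, the most of any array left out. The labels do not say that a number marks a shared animal or day. Deviations of same-numbered arrays from their genotype means correlated at r = 0.35 over 29078 probe sets, with only 2 pairs and 1 residual degree of freedom in the blocked fit. Without one array at a time the pathway list gave between 0 and 2 calls: 1 without knockout-labelled 1 (Tlr2) and 2 without knockout-labelled 2 (Tlr2 and Usp18). The 11 members 2-fold higher with LPS became 4 at 4-fold, where 1.21% of 13700 genes were at least 4-fold higher. Limma of the medium array against the 3 wild-type LPS arrays takes the spread of those 3 for the single medium array too. Its calls are therefore not counted here. The count 2-fold lower went from 0 to 2 (Bcl3 and Irak1) with either wild-type Trib1-line array in place of the LPS array. With wild type 1 there, the activator median was 0.11 and the inhibitor median 0.24. The 8 members 2-fold above medium on all 3 wild-type LPS arrays became 22 for any excess and 1 at 4-fold. Shares of all genes are not given for these rules, nor for the 2 members 2-fold lower. These counts therefore only describe the members. The count on all 3 arrays was not run on the deposited values, whose 2 sets differ in scale. Among single genes, the Nfkbiz genotype difference became -0.033 with the pair's LPS array counted among the wild types, and the Tollip LPS ratio -0.40 and -0.71 with wild type 1 and 2 in place, by the probe set used. The cause of these changes was not tested. The genotype medians, near 0, had the other sign with that array added for both classes, with quantile normalization for activators (-0.01) and without knockout-labelled 1 for inhibitors.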
